A study of Mus musculus with 12 samples.

Results

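Triglyceride assembly from glycerol phosphate was followed through 10 genes, *Gpd1*, *Gpd2*, *Gyk*, *Gpam*, *Agpat2*, *Lpin1*, *Lpin2*, *Dgat1*, *Dgat2* and *Mogat1*. They were chosen by name for the steps they serve, with earlier results of these data known. Of these 10 genes, 9 were measured, each by 1 probe set, among 19938 genes in all. *Gyk*, which encodes glycerol kinase, had no probe set that named it alone and has no value here. RNA of whole liver was measured on Affymetrix Mouse Gene 1.0 ST arrays, 1 array for each of 12 suckling pups killed at postnatal day 2 (P2). There were 6 *Ppara*-/- pups, which lack the nuclear receptor PPARα in every tissue, and 6 *Ppara*+/+ pups, with 3 females and 3 males in each genotype. Both genotypes came from matings of *Ppara*+/- parents, and no pup received an agent. The labels give the strain as SV129 and the study's methods give a C57BL/6 background. The methods describe pups from 3 litters per genotype, but the labels do not say which pup came from which litter, so every p-value below reflects the spread between pups and is not adjusted for litter. In bulk liver, fewer cells of a type and less RNA per cell cannot be told apart.

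In the glycerol phosphate route, glycerol 3-phosphate is made from dihydroxyacetone phosphate or from glycerol and then takes up fatty acids in turn. The first acyltransferase makes lysophosphatidic acid, the second makes phosphatidic acid, a phosphatase removes the phosphate to leave diacylglycerol, and the last acyltransferase makes triglyceride. In the suckling liver this route handles fatty acids from milk that are neither oxidised nor built into phospholipid. PPARα is a fatty acid sensor that pairs with RXR and binds tandem AGGTCA elements separated by 1 base, and it drives many genes of fatty acid oxidation.

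The signals were log2 values from the robust multi-array average (RMA), so a difference of 1 is a 2-fold change. Array medians lay between 7.157 and 7.199, and any pair of arrays correlated at 0.9893 to 0.9958. *Ppara* itself ran from 10.21 to 10.33 in *Ppara*-/- livers and from 10.98 to 11.27 in *Ppara*+/+ livers (log2 difference -0.89, SE 0.0488, limma adjusted p = 1.2e-06), so the signal matched the genotype label of every pup. The sources do not say which part of the gene this probe set reads. The 7 measured hepatocyte markers were among the strongest signals and 0 passed the test, where 1.12% of all genes were lower and 1.99% higher. Of the 7, 1 had an unadjusted p under 0.05, against 17.2% of all genes, and their median log2 difference was 0.02.

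Windows of 300 bases around transcript starts, from 250 before to 50 from the start on, were available for 7 of the 10 genes in RefSeq annotation of GRCm38.p6, 11 windows in all. They are shown for the gene that passed the genotype test (*Gpd2*, both starts), for the windows that hold a single AGGTCA element (*Gpam* and *Lpin1*), and for the window with a tandem match (*Mogat1*). Capitals mark the AGGTCA element or the tandem match, and each sequence reads 5′ to 3′ along the gene's strand.
*Gpd2*, upstream start, chr2:57237428-57237727, plus strand: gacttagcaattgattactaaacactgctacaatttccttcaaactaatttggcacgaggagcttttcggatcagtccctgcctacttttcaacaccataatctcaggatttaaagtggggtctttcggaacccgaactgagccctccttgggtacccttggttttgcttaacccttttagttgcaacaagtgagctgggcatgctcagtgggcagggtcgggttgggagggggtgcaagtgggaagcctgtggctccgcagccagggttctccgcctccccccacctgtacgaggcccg
*Gpd2*, downstream start, chr2:57238132-57238431, plus strand: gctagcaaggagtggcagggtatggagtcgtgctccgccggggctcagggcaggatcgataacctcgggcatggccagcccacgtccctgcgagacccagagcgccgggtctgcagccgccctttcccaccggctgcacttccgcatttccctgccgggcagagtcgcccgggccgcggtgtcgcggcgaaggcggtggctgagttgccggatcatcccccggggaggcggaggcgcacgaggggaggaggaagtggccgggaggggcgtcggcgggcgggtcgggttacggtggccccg
*Gpam*, downstream start, chr19:55099428-55099727, minus strand: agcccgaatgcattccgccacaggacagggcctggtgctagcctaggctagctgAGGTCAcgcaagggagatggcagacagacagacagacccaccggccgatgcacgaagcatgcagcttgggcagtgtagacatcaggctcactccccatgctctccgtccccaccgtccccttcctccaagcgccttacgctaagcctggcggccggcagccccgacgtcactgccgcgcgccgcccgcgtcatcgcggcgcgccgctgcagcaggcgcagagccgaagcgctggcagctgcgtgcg
*Lpin1*, chr12:16610917-16611216, minus strand: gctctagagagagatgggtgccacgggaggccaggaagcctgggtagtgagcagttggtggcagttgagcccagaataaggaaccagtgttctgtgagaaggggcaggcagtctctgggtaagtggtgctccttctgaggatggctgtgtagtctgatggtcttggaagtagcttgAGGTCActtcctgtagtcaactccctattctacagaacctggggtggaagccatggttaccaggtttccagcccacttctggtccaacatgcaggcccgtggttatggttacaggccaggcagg
*Mogat1*, chr1:78510810-78511109, plus strand: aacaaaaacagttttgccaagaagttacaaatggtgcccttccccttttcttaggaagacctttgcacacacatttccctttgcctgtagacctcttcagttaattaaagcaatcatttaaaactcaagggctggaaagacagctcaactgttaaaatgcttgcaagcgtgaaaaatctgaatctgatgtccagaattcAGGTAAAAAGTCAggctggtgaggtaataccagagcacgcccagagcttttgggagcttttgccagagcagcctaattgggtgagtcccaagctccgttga
Neither *Gpd2* window held AGGTCA on either strand. The tandem form AGGTCANAGGTCA, searched on both strands with up to 2 mismatches, was found in 1 of the 11 windows, as AGGTAAAAAGTCA from position -51 of *Mogat1*, and in 3.86% of the 32851 mouse windows of this length. The single element AGGTCA was found in 2 of the 11 windows, from -196 in *Gpam* and from -74 in *Lpin1*, and in 16.3% of all windows. The single element also forms part of the tandem form. The *Gpd2* windows had 53.0% and 72.7% G and C with 9 and 34 CpG dinucleotides, and the *Lpin1* window had 55.3% with 2, against a median of 52.7% with 7 over all windows. These matches describe the letters of these windows and say nothing about binding.

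Across the pathway, 1 of the 9 measured genes was lower in *Ppara*-/- livers at an adjusted p under 0.05, where 1.12% of all genes were lower, and 0 of the 9 were higher, where 1.99% of all genes were higher. The gene that fell was *Gpd2*. The study also drew *Gpd2* as a lower gene from these same pups, so its call is not independent evidence. Without adjustment, 4 of the 9 had a p under 0.05, against 17.2% of all genes, namely *Gpd2* and *Gpam* with lower and *Agpat2* and *Lpin1* with higher values in *Ppara*-/- livers. All *Ppara*-/- pups lay below all *Ppara*+/+ pups for 2 of the 9 (*Gpd2* and *Gpam*), against 1.43% of all genes, and above them for 1 (*Agpat2*), against 2.88%. The 9 differences were split into 4 negative and 5 positive, with a median of 0.03 and a median size of 0.10 on the log2 scale. Over all genes these medians were -0.01 and 0.06.

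**Figure D1:**
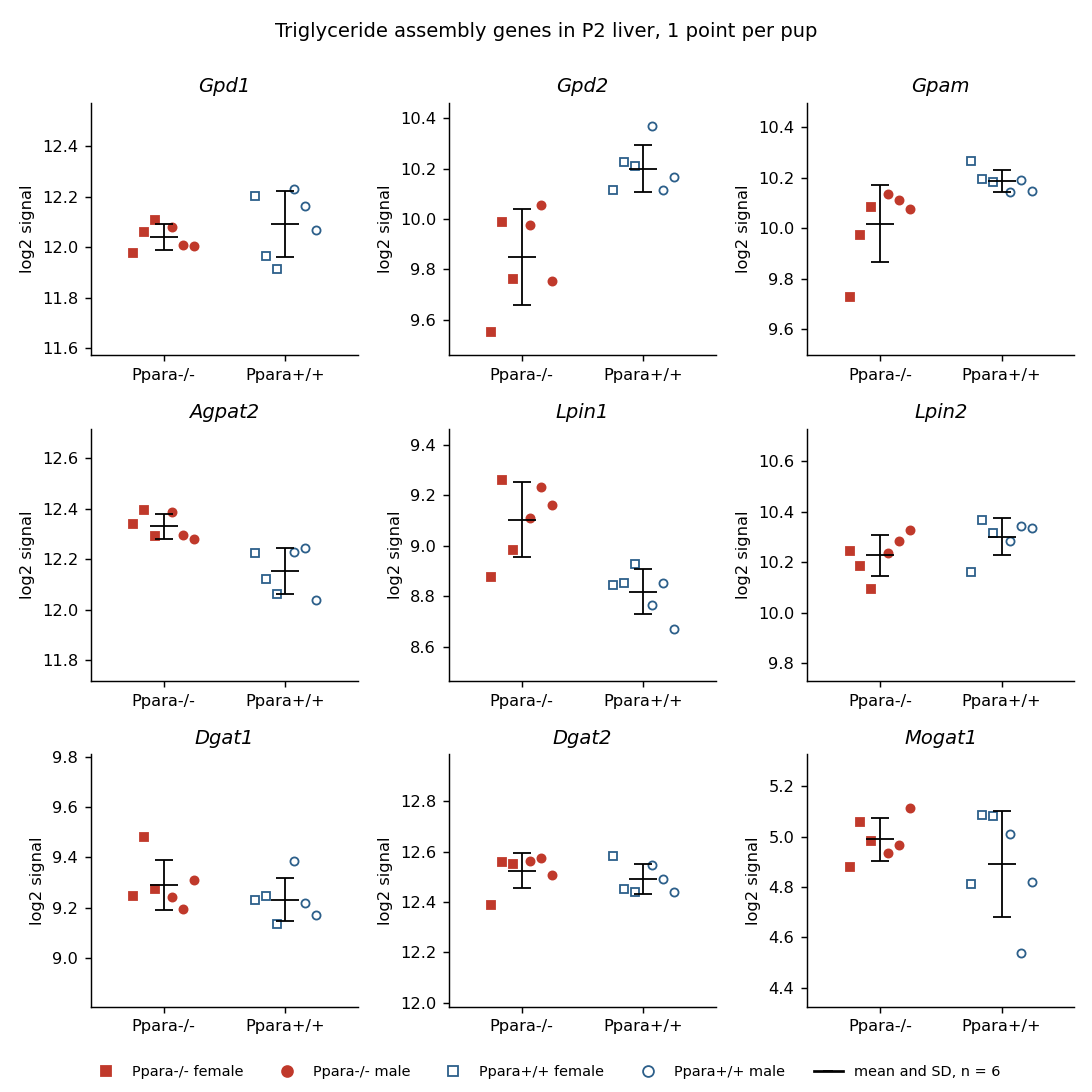
Log2 signal of each of the 9 measured genes (vertical axes, each spanning 1 log2 unit) in the 6 *Ppara*-/- and 6 *Ppara*+/+ livers, with squares for females, circles for males, and the mean and SD in black. The genotypes do not overlap for *Gpd2*, *Gpam* and *Agpat2*, and for *Lpin1* they overlap through 1 *Ppara*-/- female.

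*Gpd1* encodes the cytosolic dehydrogenase that makes glycerol 3-phosphate from dihydroxyacetone phosphate. *Gpd2* encodes the mitochondrial dehydrogenase that oxidises glycerol 3-phosphate back and passes the electrons to the respiratory chain. *Gpd2* therefore draws on the substrate of triglyceride assembly and does not make it. In log2 signal, *Gpd2* had a lowest, median and highest value of 9.55, 9.87 and 10.05 in *Ppara*-/- livers, against 10.11, 10.19 and 10.37 in *Ppara*+/+ livers. The genotypes did not overlap, and the *Ppara*-/- pups were the more spread, at 9.85 ± 0.19 in *Ppara*-/- livers and 10.20 ± 0.09 in *Ppara*+/+ livers (SD, n = 6 each). The log2 difference was -0.35 (SE 0.0806, 95% interval -0.53 to -0.17, limma adjusted p = 0.0463), a change of -21.7%. This call lay close to the threshold. It was kept when *Ppara*-/- replicate 5 or 11 was left out and lost when any 1 of the other 10 arrays was, with an adjusted p of up to 0.117, while the log2 difference ran from -0.39 to -0.30.

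*Gpd1* was at 11.98, 12.03 and 12.11 (lowest, median and highest log2 signal) in *Ppara*-/- livers, against 11.91, 12.12 and 12.23 in *Ppara*+/+ livers. All *Ppara*-/- values of *Gpd1* fell inside the *Ppara*+/+ range, and the log2 difference was -0.05 (95% interval -0.18 to 0.08, limma adjusted p = 0.749). Within each array, the log2 signal of *Gpd1* minus that of *Gpd2* averaged 2.19 ± 0.18 in *Ppara*-/- livers and 1.89 ± 0.16 in *Ppara*+/+ livers (SD, n = 6 each). The size of such a difference depends on the probe sets, but its shift between genotypes, 0.30 on the log2 scale, does not depend on the scaling of the array (exact two-sided permutation test over 924 arrangements, p = 0.013, adjusted over 3 such differences p = 0.0195). The shift uses the same *Gpd2* values as the test above. The smallest p this test can give was 0.00216.

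Glycerol that enters the hepatocyte passes through aquaglyceroporins, of which 1 of 3 fell and 0 rose, where 1.12% of all genes fell and 1.99% rose. These channels were listed with earlier results of these data known, so this count is not independent evidence. *Aqp3*, a glycerol and water channel, was at 6.66, 6.77 and 6.90 (lowest, median and highest log2 signal) in *Ppara*-/- livers, against 6.89, 7.14 and 7.28 in *Ppara*+/+ livers (log2 difference -0.34, SE 0.0735, limma adjusted p = 0.0351). All *Ppara*-/- values of *Aqp3* were below the median of any array, the genotypes overlapped at their edges, and the call was lost in the 4-group fit and without any 1 of 8 of the 12 arrays, with an adjusted p of up to 0.0912 over the 21 other limma settings. The other two channels did not pass, *Aqp9*, the main glycerol channel of the liver, with a log2 difference of 0.03 (limma adjusted p = 0.782) and *Aqp7* with 0.20 (limma adjusted p = 0.174).

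*Gpam*, the mitochondrial acyltransferase that adds the first fatty acid, had log2 signals of 9.73, 10.08 and 10.13 (lowest, median and highest) in *Ppara*-/- livers, against 10.15, 10.19 and 10.27 in *Ppara*+/+ livers. The genotypes did not overlap but lay close at their edges, and female replicate 10 stood lowest among the *Ppara*-/- pups. The log2 difference was -0.17 (SE 0.0637, 95% interval -0.31 to -0.03) and did not pass over all genes (limma adjusted p = 0.231), nor under any of 22 other settings. Among these settings, the adjusted exact Mann-Whitney test could pass no gene.

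*Agpat2*, which adds the second fatty acid and whose loss causes lipodystrophy in humans and mice, had the opposite order. Its log2 signals were 12.28, 12.32 and 12.39 (lowest, median and highest) in *Ppara*-/- livers, against 12.04, 12.17 and 12.25 in *Ppara*+/+ livers. The genotypes did not overlap, with means of 12.33 ± 0.05 in *Ppara*-/- and 12.15 ± 0.09 in *Ppara*+/+ livers (SD, n = 6 each). The log2 difference was 0.18 (SE 0.0482, 95% interval 0.07 to 0.28) and missed the threshold (limma adjusted p = 0.0928), which it passed under 3 of 22 other settings. The adjusted exact Mann-Whitney test among them could pass no gene.

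*Lpin1* and *Lpin2* encode phosphatidate phosphatases, and lipin 1 also acts in the nucleus as a coactivator with PGC-1α and PPARα. *Lpin1* was at 8.88, 9.13 and 9.26 (lowest, median and highest log2 signal) in *Ppara*-/- livers, against 8.67, 8.85 and 8.93 in *Ppara*+/+ livers. In 5 of the 6 *Ppara*-/- pups *Lpin1* exceeded every *Ppara*+/+ pup, and the exception was female replicate 10. The log2 difference was 0.29 (SE 0.0716, 95% interval 0.13 to 0.44, limma adjusted p = 0.0686). Without that female it was 0.33 and passed (limma adjusted p = 0.0226), and without any 1 of the other 11 arrays it did not pass.

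*Lpin2*, the lipin usually most abundant in liver, had 10.09, 10.24 and 10.33 (lowest, median and highest log2 signal) in *Ppara*-/- livers, against 10.16, 10.32 and 10.37 in *Ppara*+/+ livers. The genotypes overlapped, and the log2 difference was -0.07 (95% interval -0.17 to 0.03, limma adjusted p = 0.498). Within each array, the log2 signal of *Lpin2* minus that of *Lpin1* averaged 1.12 ± 0.15 in *Ppara*-/- livers, against 1.48 ± 0.12 in *Ppara*+/+ livers (SD, n = 6 each), a difference of -0.36 (exact two-sided permutation test, p = 0.00433, adjusted over 3 differences p = 0.013). The lipin signals thus shifted unequally between genotypes, and this held when any 1 array was left out. The differences then ran from -0.41 to -0.32 and the unadjusted exact permutation p-values from 0.00216 to 0.00866. This shift uses the same *Lpin1* values as the limma test of *Lpin1* above, which did not pass (adjusted p = 0.0686).

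**Figure D2:**
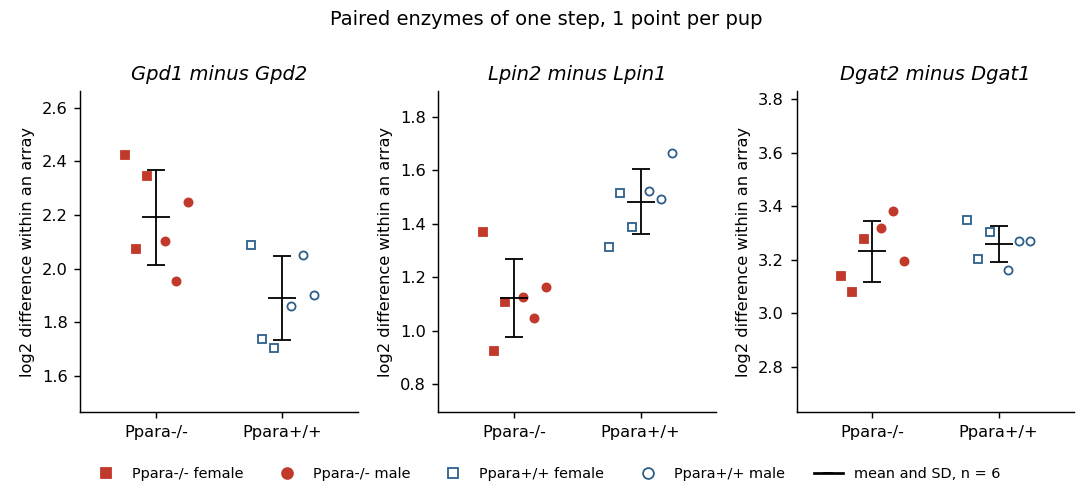
Log2 difference within an array between genes paired at a step (vertical axes), for 6 *Ppara*-/- and 6 *Ppara*+/+ livers, with the mean and SD in black. *Gpd1* minus *Gpd2* is higher and *Lpin2* minus *Lpin1* lower in *Ppara*-/- livers, while *Dgat2* minus *Dgat1* covers much the same range in both genotypes.

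*Dgat1* and *Dgat2* are unrelated enzymes that add the last fatty acid, *Dgat1* mostly to re-esterify incoming fatty acids and *Dgat2* mostly with newly made ones. *Dgat2* was at 12.39, 12.55 and 12.58 (lowest, median and highest log2 signal) in *Ppara*-/- livers, against 12.44, 12.47 and 12.58 in *Ppara*+/+ livers. *Dgat1* was at 9.20, 9.26 and 9.48 in *Ppara*-/- livers, against 9.14, 9.22 and 9.38 in *Ppara*+/+ livers. Both pairs of ranges overlapped, and the log2 differences were 0.03 for *Dgat2* (95% interval -0.065 to 0.129, limma adjusted p = 0.798) and 0.06 for *Dgat1* (95% interval -0.065 to 0.185, limma adjusted p = 0.684). *Dgat2* minus *Dgat1* within an array was 3.23 ± 0.11 in *Ppara*-/- livers and 3.26 ± 0.07 in *Ppara*+/+ livers (SD, n = 6 each), and this difference of -0.03 was within the spread between pups (exact two-sided permutation test, p = 0.606).

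*Mogat1* makes diacylglycerol from monoacylglycerol and so joins the route without glycerol phosphate. Its signal was low among all genes (percentile 17.4 of the mean signal) and below the array median in every pup. It was at 4.88, 4.97 and 5.11 (lowest, median and highest log2 signal) in *Ppara*-/- livers, against 4.54, 4.92 and 5.09 in *Ppara*+/+ livers. The ranges overlapped, and the log2 difference was 0.10 (SE 0.0875, 95% interval -0.09 to 0.29, limma adjusted p = 0.666).

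**Figure D3:**
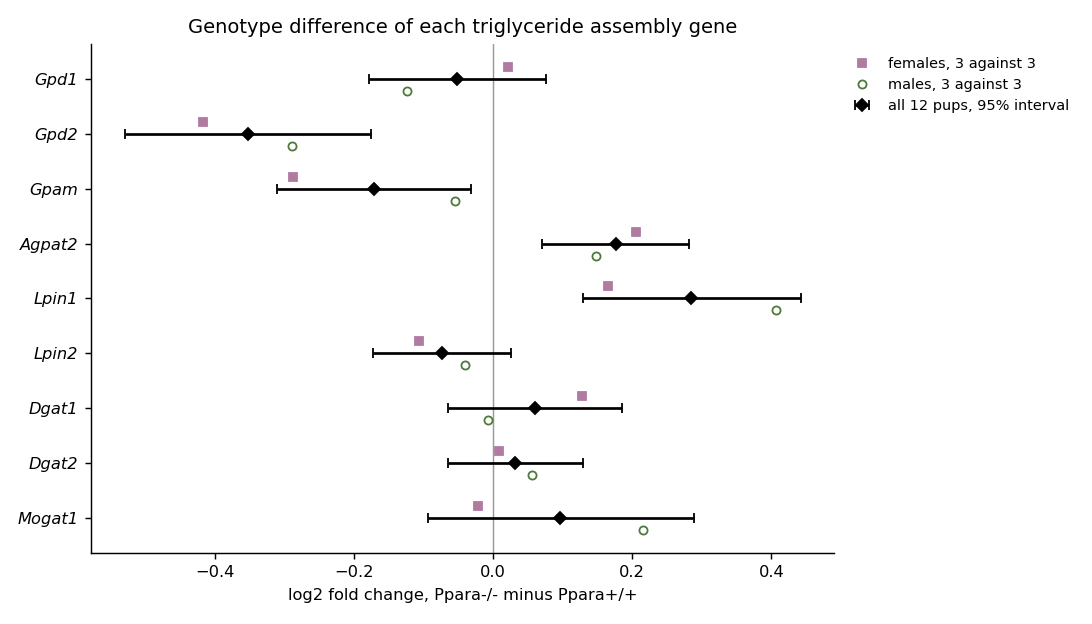
Log2 fold change, *Ppara*-/- minus *Ppara*+/+, of each of the 9 genes (horizontal axis) with its 95% interval over 12 pups in black, and the same difference in females (squares) and in males (open circles), 3 pups against 3. The intervals of *Gpd2* and *Gpam* lie below 0 and those of *Agpat2* and *Lpin1* above 0, while the other 5 include 0.

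The 4 genes with an unadjusted p under 0.05 over all pups, a choice that itself favours agreement between the sexes, had the same sign in both. The log2 differences were -0.42 in females and -0.29 in males for *Gpd2*, -0.29 and -0.05 for *Gpam*, 0.20 and 0.15 for *Agpat2*, and 0.17 and 0.41 for *Lpin1*. Of the other 5 genes, *Gpd1* (0.02 in females and -0.12 in males), *Dgat1* (0.13 and -0.01) and *Mogat1* (-0.02 and 0.22) had opposite signs. Within females 0 of the 9 genes passed limma after adjustment, against 0.808% of all genes, and 3 of the 9 had an unadjusted p under 0.05, against 9.79% of all genes. Within males 0 of the 9 passed, against 0.928% of all genes, and 2 of the 9 had an unadjusted p under 0.05, against 9.73%. The interaction of genotype and sex passed limma for 0 of the 9 and for 0.0% of all genes, and 0 of the 9 had an unadjusted p under 0.05, against 1.79% (357 genes). The smallest interaction p-values of the pathway were 0.0647 for *Gpam* and 0.0926 for *Lpin1* without adjustment (limma adjusted p = 1.0 for both). Sex itself passed for 0 of the 9, against 0.0401% of all genes, and 0 of the 9 had an unadjusted p under 0.05, against 2.78%.

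The pups of a genotype were not alike across these 9 genes. Female replicate 10, singled out after the values were seen, had the lowest *Ppara*-/- value for 6 of the 9 genes (*Gpd1*, *Gpd2*, *Gpam*, *Lpin1*, *Dgat2* and *Mogat1*) and the highest for 0. How often this pup was lowest over all genes was not counted, so the count does not show a trait of the pathway. Over 72 pairs of genes within a genotype, 6 pups each, 0 correlations passed after adjustment (smallest adjusted p = 0.2, exact permutation test) and 4 had an unadjusted p under 0.05. At that threshold chance alone lets some pairs through, and the share over pairs of all genes was not computed. The pair with the smallest exact p is given here, singled out after the values were seen. In *Ppara*-/- livers *Gpd2* and *Dgat2* had Pearson r = 0.894 (exact permutation p = 0.00278) and Spearman rho = 0.943 (exact permutation p = 0.0167), which included female replicate 10, lowest in both, and r was 0.761 without the 2 pups farthest from the median of *Gpd2*.

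Among genes around the route, the long-chain acyl-CoA synthetases activate fatty acids before they are esterified, and of the 3 measured 1 rose and 1 fell, where 1.99% of all genes rose and 1.12% fell. The synthetases were listed with earlier results of these data known, so this count is not independent evidence. Another 2, *Acsl1*, the main isoform of liver, and *Acsl3*, had no probe set naming them alone and have no value here. *Acsl4*, which prefers arachidonic acid, had log2 signals from 10.25 to 10.51 in *Ppara*-/- livers, against 10.09 to 10.19 in *Ppara*+/+ livers (log2 difference 0.26, SE 0.0436, limma adjusted p = 0.0079). *Acsl5*, an isoform of mitochondria and endoplasmic reticulum, had 11.61 to 11.72 in *Ppara*-/- livers, against 11.82 to 11.87 in *Ppara*+/+ livers (log2 difference -0.18, SE 0.033, limma adjusted p = 0.0124). Neither pair of ranges overlapped, and both calls held in each of the 21 other limma settings.

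Of 18 further isoenzymes and family relatives of these enzymes, not all of which serve the same steps, 0 passed limma in either direction. Over all genes 1.12% were lower and 1.99% higher. Of the 18, 13 lay at or above the 40th percentile of signal. Of the 18, 5 had an unadjusted p under 0.05, against 17.2% of all genes, and their median log2 difference was 0.01. The top of their range was *Mogat2*, the monoacylglycerol acyltransferase of the intestine, singled out after its values were seen. *Mogat2* had log2 signals of 8.32, 8.64 and 9.61 (lowest, median and highest) in *Ppara*-/- livers, against 7.90, 8.01 and 8.23 in *Ppara*+/+ livers. The genotypes did not overlap and the *Ppara*-/- pups spread widely, with a log2 difference of 0.75 (SE 0.18) that missed the threshold (limma adjusted p = 0.0575) and passed in 7 of 21 other settings. Of 16 measured genes of the branches to phospholipid, 0 passed limma in either direction and 5 had an unadjusted p under 0.05, against the same shares of all genes. Their median log2 difference was 0.02, with a range from -0.14 to 0.16.

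**Figure D4:**
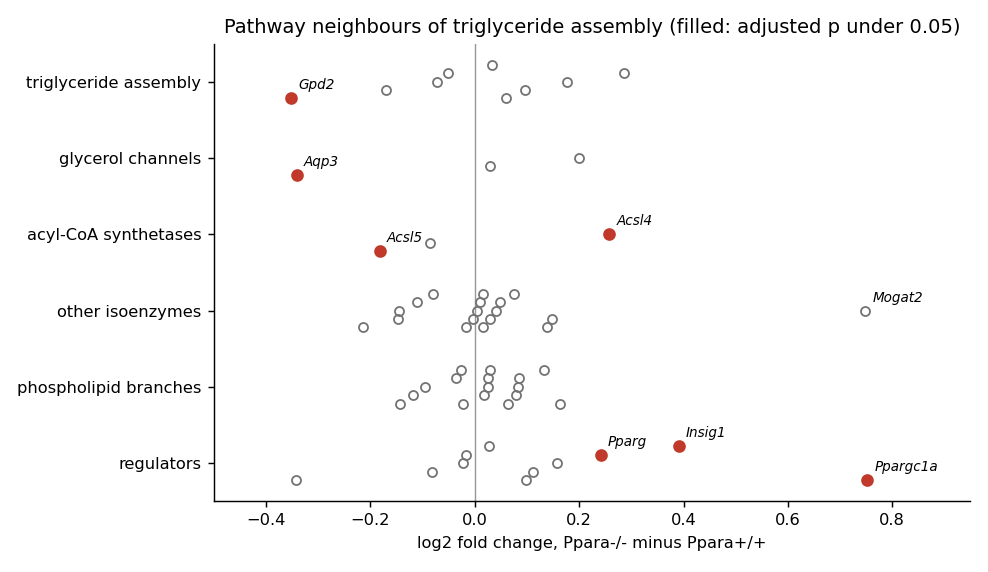
Log2 fold change, *Ppara*-/- minus *Ppara*+/+ (horizontal axis), of each measured gene of 6 lists, 1 circle per gene, filled and named where the adjusted p was under 0.05 (*Mogat2*, at 0.75, is named but open). Filled circles lie on both sides of 0, and the isoenzymes and phospholipid branches hold none.

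Among 11 regulators of hepatic lipid metabolism, 3 rose and 0 fell, where 1.99% of all genes rose and 1.12% fell. The regulators were listed with earlier results of these data known, so this count is not independent evidence. Of the 11, 6 had an unadjusted p under 0.05, against 17.2% of all genes. *Ppargc1a*, the coactivator PGC-1α that responds to fasting, averaged 9.66 ± 0.19 in *Ppara*-/- livers and 8.90 ± 0.19 in *Ppara*+/+ livers (SD, n = 6 each; log2 difference 0.75, SE 0.108, limma adjusted p = 0.00299). *Insig1*, which holds SREBP precursors in the endoplasmic reticulum, averaged 10.9 ± 0.12 in *Ppara*-/- livers and 10.5 ± 0.12 in *Ppara*+/+ livers (SD, n = 6 each; log2 difference 0.39, SE 0.0676, limma adjusted p = 0.00932). *Pparg*, the nuclear receptor of fat storage, had log2 signals from 9.70 to 9.80 in *Ppara*-/- livers, against 9.37 to 9.60 in *Ppara*+/+ livers (log2 difference 0.24, SE 0.0465, limma adjusted p = 0.0189). These 3 calls held in each of the 21 other limma settings. *Srebf1*, which encodes the lipogenic factor SREBP-1 and is named after its values were seen, had the most negative difference of the list, with log2 signals from 9.39 to 9.66 in *Ppara*-/- livers, against 9.63 to 10.17 in *Ppara*+/+ livers. Its log2 difference of -0.34 (SE 0.0892) missed the threshold (limma adjusted p = 0.0788) and passed in 4 of the 21 other limma settings. The median log2 difference of the 11 was 0.10.

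No marker of another cell type passed the threshold in the reported fit, but within a list the differences mostly had the same sign. Over all genes, 1.12% passed as lower and 1.99% as higher, and 17.2% had an unadjusted p under 0.05. Counted after rounding, 10895 of all log2 differences were negative and 8951 positive. All 10 measured erythroid markers had negative log2 differences (median -0.20, 8 with an unadjusted p under 0.05), with a summed log2 signal of 14.95 to 15.33 in *Ppara*-/- livers, against 15.05 to 15.43 in *Ppara*+/+ livers. All 13 Kupffer cell markers were positive (median 0.20, 9 with an unadjusted p under 0.05), with a summed log2 signal of 14.28 to 14.44 in *Ppara*-/- livers, against 14.08 to 14.40 in *Ppara*+/+ livers. All 11 endothelial markers were positive too (median 0.13, 7 with an unadjusted p under 0.05), with 13.86 to 13.97 in *Ppara*-/- livers, against 13.70 to 13.87 in *Ppara*+/+ livers. Kupffer markers passed as higher in 8 of 22 other settings, 1 to 5 of them, and endothelial markers in 7 of 22, 1 to 3 of them. Among the 22 settings, the adjusted exact Mann-Whitney test could pass no gene. Of 9 granulocyte markers 8 were positive (median 0.07, 3 with an unadjusted p under 0.05). Their part in the differences of the pathway genes was not tested. Of 7 adipocyte markers 5 were negative and 2 positive (median -0.07, 0 with an unadjusted p under 0.05). Their summed log2 signal was 12.45 to 12.56 in *Ppara*-/- livers, against 11.61 to 12.72 in *Ppara*+/+ livers. Much of this sum came from *Car3*, the strongest signal of the 7 (percentile 97.1; log2 difference 0.39, limma adjusted p = 0.374). *Car3* was at 12.22 to 12.40 in *Ppara*-/- livers, against 11.15 to 12.57 in *Ppara*+/+ livers. Adiponectin (*Adipoq*), the weakest signal of the 7, lay near the bottom of the array (percentile 9.5), at 3.97 to 4.26 in *Ppara*-/- livers, against 3.96 to 4.31 in *Ppara*+/+ livers. Without *Ppara*+/+ female replicate 7, 348 genes were lower and 718 higher in *Ppara*-/- livers, against 224 and 397 with it, and 3 erythroid markers fell while 5 Kupffer and 3 endothelial markers rose. In that fit 0 of the 9 pathway genes passed, and *Gpd2* had an adjusted p of 0.0508.

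**Figure D5:**
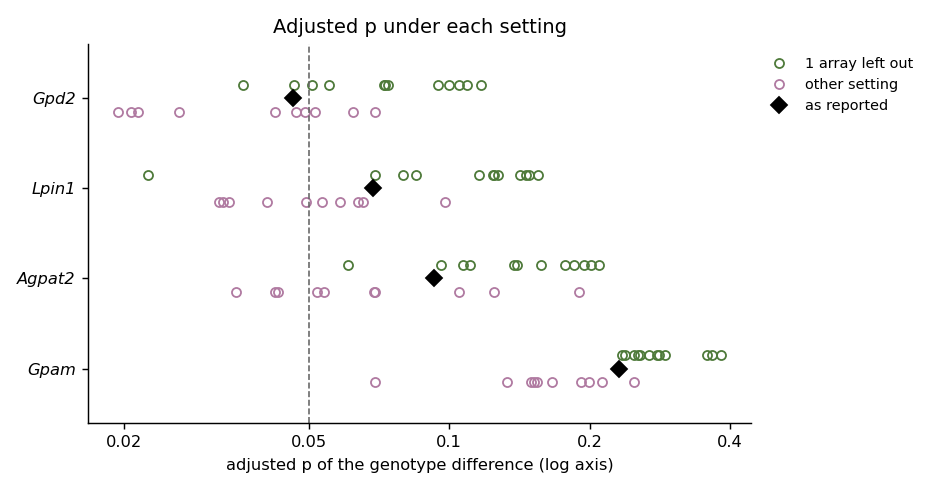
Adjusted p of the genotype difference (horizontal log axis, dashed line at 0.05) for the 4 genes with an unadjusted p under 0.05, as reported (diamonds), with 1 array left out (green) and under other settings (purple). *Gpd2* lies close to the line on both sides of it, *Lpin1* and *Agpat2* cross it in 6 and 3 of 22 settings, and *Gpam* in none. The adjusted exact Mann-Whitney test, among these settings, could pass no gene.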

How the data were processed

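RNA of whole liver from 12 pups was hybridised by the authors to Affymetrix Mouse Gene 1.0 ST arrays, only RNA with an integrity number above 8 being labelled. The deposited values are log2 signals of 35556 probe sets, summarised and normalized across arrays by the authors with RMA (version not given in the sources used here), and no further scaling was applied. RMA signals have no true zero and depend on the probes, so no fold was drawn between genes; a gene's place among all signals is given only as a rank, and sums over a marker list only compare arrays. Of the probe sets, 21789 named 1 gene, 1621 named several and 12146 had no name here. For each gene the brightest probe set on average, among those naming it alone, was kept. Arrays of fetal liver were not analysed here. The number of pups limits the precision.

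Each probe set was fitted with limma 3.58.1 in R 4.3.3 (lmFit and eBayes) on genotype and sex, with 9 residual and 2.49 prior degrees of freedom, with Benjamini-Hochberg adjustment across the whole table. Genotype within each sex and the interaction came from a fit of 4 groups. Differences within an array were compared by exact permutation (scipy 1.17.1). The fit was tested on simulated data. Named were every measured member, *Ppara*, and from each list up to 5 genes that passed. *Aqp7* and *Aqp9*, the other glycerol channels, were named without passing, and *Acsl1* and *Acsl3* as unmeasured. *Mogat2*, *Srebf1*, *Adipoq* and *Car3* were named after their values were seen. The members and lists were chosen with earlier results of these data known. Alternatives were a fit without sex, a 4-group fit, quantile normalization, median centring, a filter below the 40th percentile of signal, only probe sets of 1 gene, a robust trend, array weights, averaging the probe sets of a gene, an exact Mann-Whitney test, a 1.3-fold minimum and leaving out each array.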

Additional observations from a re-analysis of the deposited data

Results flagged for a closer look

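*Dgat2* in *Ppara*-/- female replicate 10 was 12.388 on the log2 scale, apart from the other 5 *Ppara*-/- pups at 12.509 to 12.576. Its gap to the nearest pup was 0.644 of the group's range, above Dixon's 95% critical value for 6 samples. It was the only such value among 18 groups (9 genes in 2 genotypes), and chance alone gives such a value in about 5% of groups. This pup also had the lowest *Ppara*-/- value for 5 of the other 8 genes, and the share over all genes was not counted.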

How the results depend on the processing

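No gene of the pathway changed the sign of its log2 difference under any of the 22 alternatives (21 for *Mogat1*, which the signal filter removes). The log2 difference was fixed in advance without sex, in the 4-group fit, with the signal filter and with only probe sets of 1 gene. It was also fixed with a robust trend, with the mean of probe sets and in the Mann-Whitney test. The sign could change only under quantile normalization, median centring, array weights or with an array left out. Which genes passed depended on the setting. The count of lower genes, 1 as reported (*Gpd2*), was 0 in the 4-group fit, with array weights, with the adjusted exact Mann-Whitney test (whose smallest p, 0.00216, was 0.0694 after adjustment, so that no gene could pass) and with a 1.3-fold minimum, and 0 to 1 when an array was left out. The count of higher genes, 0 as reported, was 1 without sex, 1 with only probe sets of 1 gene, 1 with array weights, 1 with the mean of probe sets, 2 with the signal filter and 2 with a robust trend, and 0 to 1 when an array was left out. The adjusted p ran from 0.0195 to 0.117 for *Gpd2*, 0.0226 to 0.155 for *Lpin1*, 0.0348 to 0.21 for *Agpat2* and 0.0694 to 0.383 for *Gpam*. The lower end for *Gpam* is the smallest value that the adjusted exact Mann-Whitney test can give. The cause of these shifts was not tested. *Gpd1* minus *Gpd2* and *Lpin2* minus *Lpin1* kept their direction and an exact p under 0.05 throughout. *Dgat2* minus *Dgat1*, with no call, ran from -0.058 to 0.002 when an array was left out, the positive value without *Ppara*-/- female replicate 11 (exact permutation p = 0.965). Counts of 0 for the interaction and for sex were 0 with a robust trend too. Over all genes, 224 were lower and 397 higher as reported, and 161 to 387 lower and 259 to 718 higher under the other limma settings and arrays left out, the most lower with array weights and the most higher without *Ppara*+/+ replicate 7, while the adjusted exact Mann-Whitney test called 0 (3359 with an unadjusted p under 0.05). Scaling moved the median of all genes by less than 0.01. No analysis paired by litter was possible because the labels do not say which pup came from which litter. *Mogat1* had the lowest signal of the 9 genes.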
